A study of Mus musculus with 8 samples.

Results

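The genes described here are 59 that carry out or feed DNA replication. They were taken from the deposited gene tables by symbol, and all 59 were found among the 38215 genes listed. All 59 also passed the expression filter, which left 13397 genes to be tested. Sorted FoxP3+ cells of naïve mice, 12 weeks old, had been analysed by RNAseq, 4 libraries from marrow (BM-Treg) and 4 from spleen (SP-Treg). The animals were B6.FoxP3-GFP mice, in which cells that express FoxP3 carry a green fluorescent protein by which they are sorted, and the labels give the genotype of every library as C57Bl/6. BM-Treg replicates 1 to 3 are labelled batch 1 and female, while BM-Treg replicate 4 and SP-Treg replicates 1 to 4 are labelled batch 3 and male. No treatment or other allele distinguishes the tissues.

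A cell that is to divide first licenses its replication origins. The origin recognition complex (ORC), CDC6 and CDT1 load rings of the MCM2 to MCM7 helicase onto DNA during G1. In S phase MCM10, CDC45 and the GINS complex turn these rings into running helicases. Primase and the polymerases then copy the strands, held on DNA by the sliding clamp PCNA, while ribonucleotide reductase and the purine and pyrimidine pathways supply the nucleotides. Many of these genes are transcribed at the G1/S border under E2F factors, and purine synthesis genes are known targets of MYC. T cells rely on both programmes when they leave quiescence.

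Promoter sequence was examined because E2F sites are a known feature of this class of genes. RefSeq windows on GRCm38.p6, reaching from 250 bases before to 50 bases after the start site, were available for 51 of the 59 genes and were searched on both strands for the E2F sequences TTTCCCGC, TTTCGCGC and TTTGGCGC. At least 1 was found in 17 of the 51 genes (33.3%), compared with 573 of the 27025 genes with a window (2.12%). These 27025 include genes that did not pass the expression filter, which all 59 passed, and shares among the tested genes were not counted. TTTGGCGC and TTTCGCGC overlap when they lie on opposite strands, as in TTTGGCGCGAAA, so that 1 place can count as a pair of matches. The 250 bases before the start site are given below, 5′ to 3′ on the strand of the gene and with E2F matches in capitals, for the 4 genes with such a match that differed most between tissues among those called lower with each library left out in turn (a choice made after their values were seen), and for Ung, which had the largest difference of all and no match. They lie at chr1:128359706-128359955, minus strand (Mcm6), at chr8:75109259-75109508, plus strand (Mcm5), at chr11:98907901-98908150, plus strand (Cdc6), at chr1:191575545-191575794, minus strand (Dtl) and at chr5:114130185-114130434, plus strand (Ung).
Mcm6: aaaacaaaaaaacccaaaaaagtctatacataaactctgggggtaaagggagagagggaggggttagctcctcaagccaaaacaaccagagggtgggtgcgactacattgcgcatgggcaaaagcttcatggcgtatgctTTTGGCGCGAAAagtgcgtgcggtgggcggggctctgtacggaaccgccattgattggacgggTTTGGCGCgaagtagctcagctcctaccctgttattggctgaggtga
Mcm5: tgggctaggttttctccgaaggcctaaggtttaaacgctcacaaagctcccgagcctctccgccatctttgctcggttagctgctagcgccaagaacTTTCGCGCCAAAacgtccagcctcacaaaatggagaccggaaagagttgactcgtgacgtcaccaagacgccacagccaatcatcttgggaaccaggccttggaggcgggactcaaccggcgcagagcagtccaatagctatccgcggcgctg
Cdc6: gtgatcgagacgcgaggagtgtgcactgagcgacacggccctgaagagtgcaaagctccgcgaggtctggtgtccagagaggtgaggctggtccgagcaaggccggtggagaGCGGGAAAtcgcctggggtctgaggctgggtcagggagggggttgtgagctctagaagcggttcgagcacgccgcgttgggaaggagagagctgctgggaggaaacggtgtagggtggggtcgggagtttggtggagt
Dtl: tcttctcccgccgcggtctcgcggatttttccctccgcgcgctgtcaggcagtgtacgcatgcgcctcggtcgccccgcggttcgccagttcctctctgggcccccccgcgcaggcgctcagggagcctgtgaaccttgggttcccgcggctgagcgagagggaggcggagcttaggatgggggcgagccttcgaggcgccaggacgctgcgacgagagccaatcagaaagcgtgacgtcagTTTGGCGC
Ung: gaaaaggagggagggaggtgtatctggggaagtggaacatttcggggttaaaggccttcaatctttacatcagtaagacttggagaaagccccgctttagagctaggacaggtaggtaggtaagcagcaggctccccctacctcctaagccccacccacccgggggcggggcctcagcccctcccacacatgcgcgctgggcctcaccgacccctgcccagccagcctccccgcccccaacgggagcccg

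In the stretch of Mcm6 the overlapping pair begins 110 bases before the start site and a further match begins 47 bases before it. The overlapping pair of Mcm5 begins at 153 bases, the match of Cdc6 (read on the opposite strand) at 138 bases and that of Dtl at 8 bases before the start. These start sites are those of RefSeq. By the deposited coordinates Cdc6 begins at chr11:98907801, so that its printed stretch lies within the gene. A match was present in 9 of the 21 genes that were lower in BM-Treg (42.9%) and in 8 of the 30 others with a window (26.7%), and this difference was not tested. Besides the 4 shown, Mcm3, Mcm7, Orc1, Ppat and Lig1 held a match among the lower genes, whereas E2f2, Rfc3, Pold1, Pold3, Gins3, Cdt1, Pole2 and Pola1 held one among the others. The E-box CACGTG, bound by MYC and its partners, was present in 19.6% of the genes and 8.09% of all genes with a window. Shares for the CCAAT box were 60.8% and 41.1%, and for the CHR element TTTGAA, known from mitotic promoters, 13.7% and 20.2%. A match is a run of letters and was not measured as a bound site.

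Of the 59 replication and nucleotide genes, 21 were downregulated in BM-Treg and 0 were upregulated (adjusted p under 0.05, quasi-likelihood test of edgeR, Benjamini-Hochberg over all 13397 genes). Over all genes tested, 5.02% were downregulated and 3.72% upregulated. At an unadjusted p under 0.05, 1 of the 59 was higher and 32 were lower. DESeq2 called 25 of them lower, against 6.89% of all genes, and limma-voom 21, against 5.26%, and both called 0 higher. All SP-Treg libraries but only 1 BM-Treg library belong to batch 3, and with batch as a term edgeR called 1 of the 59 lower (Orc2), against 1.10% of all genes. On FPKM values (limma-trend on log2(FPKM + 1)) 11 of the 59 were called lower, against 2.02% of all genes. Of the 21, this fit kept Cdc6, Mcm2, Mcm5, Mcm6, Mcm10, Fen1, Lig1, Ung, Dtl and Paics and lost the other 11. The median log2 fold change (BM-Treg minus SP-Treg) was -0.42, with quartiles at -0.64 and -0.17, compared with a median of -0.01 over all genes tested. A negative fold change was found for 53 of the 59 (89.8%, against 51.4% of all genes tested). Every BM-Treg library lay below every SP-Treg library in 19 of the 59 genes, as in 7.67% of all genes tested, and above in 1 (E2f2), as in 8.26%.

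By role, origin licensing had 8 of 11 genes downregulated and the genes of strand maturation and replication-coupled factors 4 of 6, whereas primase and polymerases had 0 of 9. Median log2 fold changes ran from -0.83 for strand maturation and -0.62 for licensing to -0.30 for polymerases and -0.16 for the clamp, clamp loader and single-strand binding genes. Whether roles differ from each other was not tested. Since these were bulk samples, fewer cells in S phase and less RNA per cell cannot be told apart.

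**Figure D1:**
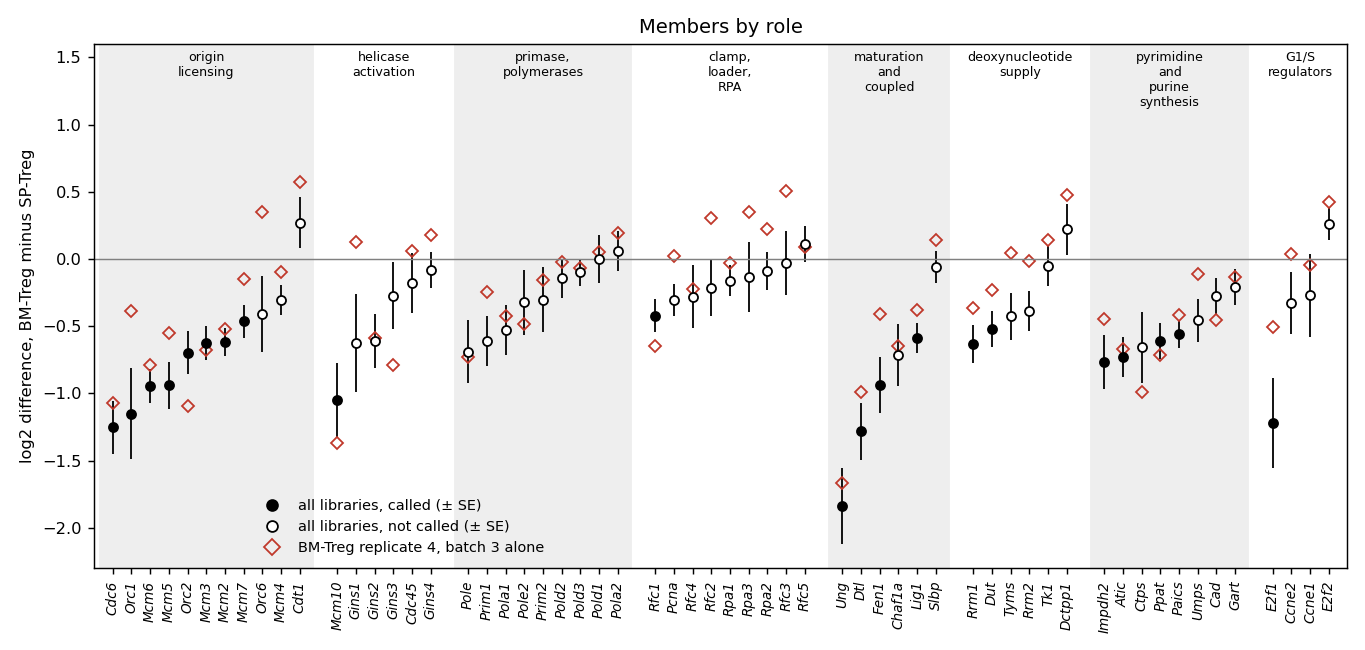
Log2 difference between BM-Treg and SP-Treg (vertical axis) for each of the 59 genes, grouped by role. Circles give the fold change over all 8 libraries with its SE and are filled where adjusted p was under 0.05 (edgeR), and open diamonds give BM-Treg replicate 4 minus the SP-Treg mean within batch 3. All 21 filled circles lie below 0, and their diamonds lie below 0 too. These 21 were called in a fit that includes BM-Treg replicate 4.

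Expected counts summed to between 12427136 and 21921252 per library, and BM-Treg replicate 4 had the smallest total. The 9 Treg marker genes that were examined, with Foxp3, Cd4 and Ctla4 among them, summed to 7577 to 9191 CPM (counts scaled to a common library size) in BM-Treg and 8374 to 9112 CPM in SP-Treg, with 0 of 9 called in either direction. The summed CPM of markers of other cells spanned a wider range within SP-Treg than within BM-Treg, except for stem and progenitor markers. Of 10 erythroid markers, 8 were in the tables and summed to 8.22 to 12.2 CPM in BM-Treg and 2.10 to 155.3 CPM in SP-Treg. The 11 B lineage markers summed to 12.2 to 15.9 and 8.31 to 106.5 CPM, and the 10 neutrophil and myeloid precursor markers to 1.35 to 10.1 and 0.217 to 17.5 CPM. Plasmacytoid dendritic cell markers (6) summed to 52.0 to 62.9 and 38.0 to 70.2 CPM, and stem and progenitor markers (6) to 5.80 to 14.4 and 3.41 to 9.48 CPM. Most of the plasmacytoid dendritic cell sums came from Ccr9 (mean 34.99 CPM in BM-Treg, 25.88 in SP-Treg) and Pacsin1 (20.31 and 29.28). Spib followed at 2.239 and 5.321 CPM, and Siglech (0.564 and 0.216), Klk1 (0.01165 and 0.03949) and Cox6a2 (0.07242 and 0.03625) were lower. The defining markers Ly6g, Igll1 and Mecom were at 0 in all libraries, while Ebf1 (B lineage) and Pacsin1 (plasmacytoid dendritic cell) were called lower in BM-Treg. SP-Treg replicate 1 was below every BM-Treg library in the summed erythroid (2.10 CPM), B lineage (8.31 CPM) and neutrophil markers (0.217 CPM). The same held for its plasmacytoid dendritic cell markers (38.0 CPM), but not for its stem and progenitor markers (9.255 CPM). It lay above every BM-Treg library in 19 of the 21 downregulated genes, all except Orc1 and Mcm10. SP-Treg replicates 2, 3 and 4 did so in all 21. The 21 were called in a fit that includes these libraries, so that this order is no separate support. The part of these marker lists in the results was not tested.

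Licensing was the role with the most downregulated genes. Cdc6, which with ORC brings the helicase to origins, stood from replicate 1 to 4 at 5.41, 4.19, 4.00 and 5.12 CPM in BM-Treg against 10.6, 9.64, 10.6 and 13.2 CPM in SP-Treg. Its log2 fold change was -1.25 ± 0.20 (SE), with an adjusted p of 0.00175. Each SP-Treg library was above each BM-Treg library, and the fitted level was 2.38-fold higher in SP-Treg.

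The helicase subunits Mcm2 to Mcm7 were downregulated in 5 of 6 cases. Mcm6 stood at 57.7, 62.9, 72.9 and 72.1 CPM in BM-Treg against 162.5, 111.0, 108.6 and 122.3 CPM in SP-Treg, and its log2 fold change was -0.94 ± 0.13 (SE), with an adjusted p of 0.000909. Mcm5 stood at 15.8, 15.1, 13.3 and 20.4 CPM in BM-Treg against 33.6, 21.6, 29.7 and 36.9 CPM in SP-Treg, and its log2 fold change was -0.94 ± 0.18 (SE), with an adjusted p of 0.00463. In both genes the tissues did not overlap, and for Mcm5 the highest BM-Treg library was replicate 4. Mcm3 stood at 33.3, 29.3, 29.04 and 28.3 CPM in BM-Treg against 51.05, 36.4, 44.6 and 50.7 CPM in SP-Treg, and its log2 fold change was -0.62 ± 0.13 (SE), with an adjusted p of 0.00801. Mcm2 stood at 28.6, 27.99, 30.98 and 31.2 CPM in BM-Treg against 43.7, 42.2, 45.3 and 48.5 CPM in SP-Treg, and its log2 fold change was -0.62 ± 0.11 (SE), with an adjusted p of 0.00283. Values of Mcm2 were close together within each tissue, and the gap between tissues was wider than either range. Mcm7 stood at 32.3, 30.2, 31.2 and 41.4 CPM in BM-Treg against 45.3, 45.4, 44.4 and 48.6 CPM in SP-Treg, and its log2 fold change was -0.46 ± 0.12 (SE), with an adjusted p of 0.0286. BM-Treg replicate 4 was the nearest of its group to SP-Treg in Mcm7. Mcm4 was not called, with -0.30 (adjusted p = 0.117), and ranged from 62.8 to 79.9 CPM in BM-Treg and from 76.8 to 94.2 CPM in SP-Treg.

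Of the ORC genes, Orc2 stood at 15.1, 15.3, 17.9 and 10.99 CPM in BM-Treg against 26.5, 22.9, 20.2 and 25.5 CPM in SP-Treg, and its log2 fold change was -0.70 ± 0.16 (SE), with an adjusted p of 0.0141. BM-Treg replicate 4 was the lowest library for Orc2, unlike for most of these genes. Orc1, which is made anew in each cell cycle, stood at 2.54, 1.63, 2.07 and 4.03 CPM in BM-Treg against 3.69, 4.34, 7.77 and 6.38 CPM in SP-Treg, and its log2 fold change was -1.15 ± 0.34 (SE), with an adjusted p of 0.0468. The tissues overlapped in Orc1, since BM-Treg replicate 4 was above SP-Treg replicate 1. Orc6 was at -0.41 (adjusted p = 0.425). Cdt1, the partner of CDC6 in loading the helicase, had the highest fold change of all 59, 0.27, and was not called (adjusted p = 0.431). It ranged from 11.7 to 17.1 CPM in BM-Treg and from 8.69 to 14.7 CPM in SP-Treg. The deposited coordinates of Orc2 overlap those of Nif3l1 on the opposite strand over 19046 bases, and those of Orc1 overlap Gm12743 over 22409 bases. Mcm7 overlaps Ap4m1 over 421 bases, and Cdt1 overlaps Gm20388 on the same strand over 5114 bases. In all, 16 of the 59 genes overlap another gene with a mean of at least 10 counts per library, 7 of them downregulated. The sources used here do not say whether counting used strand, so that reads in shared exons of such pairs cannot be assigned with certainty.

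The calls of Cdc6, Mcm2, Mcm3, Mcm5, Mcm6 and Orc2 held with each of the 8 libraries left out in turn, although those of Mcm3 and Orc2 were lost in the fit on FPKM values (adjusted p = 0.0848 and 0.151, limma). Those of Mcm7 and Orc1 held in 2 of 8. The call of Mcm7 was lost without BM-Treg replicate 1, 2 or 3 or without SP-Treg replicate 1, 2 or 4, with adjusted p up to 0.105 by edgeR. That of Orc1 was lost without BM-Treg replicate 1, 2 or 3 or without SP-Treg replicate 2, 3 or 4, with adjusted p up to 0.135.

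**Figure D2:**
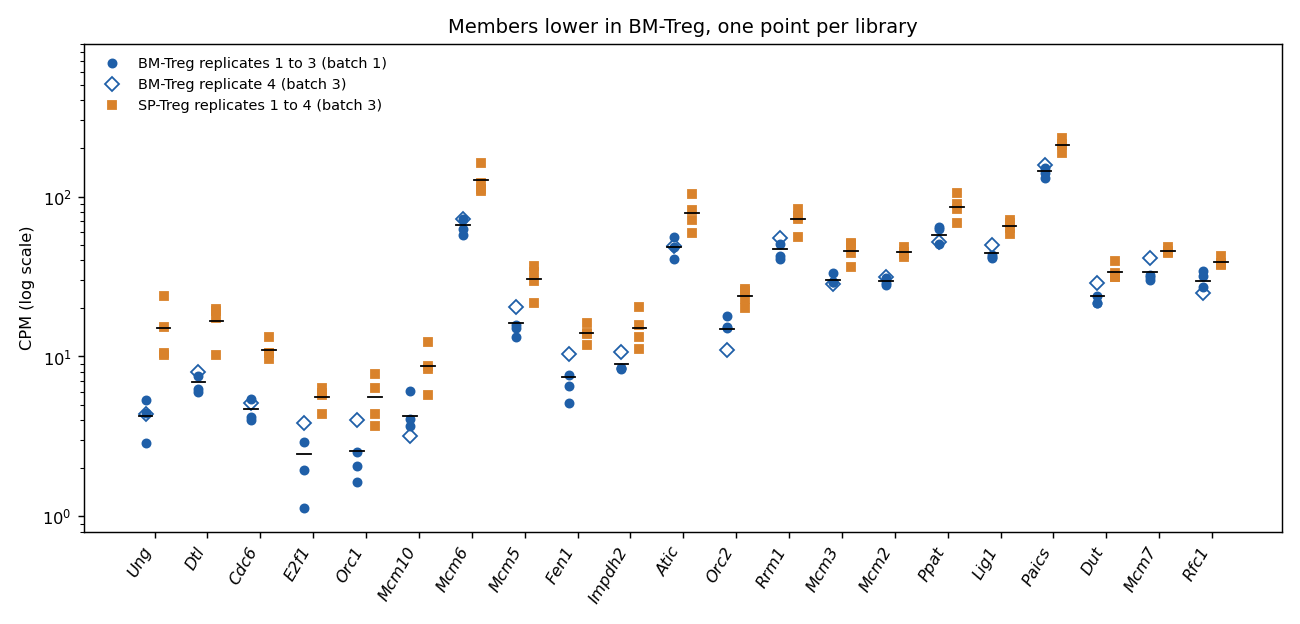
CPM on a log scale for the 21 downregulated genes, in order of fold change from the largest at the left, with 1 point per library and black bars for the mean of 4 libraries. Filled circles are BM-Treg replicates 1 to 3, open diamonds BM-Treg replicate 4 and squares SP-Treg replicates 1 to 4. The tissues overlap in Orc1 and Mcm10 and are apart in the other 19.

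Among the genes that activate the helicase, 1 of 6 was downregulated. Mcm10, which is needed for the loaded helicase to start unwinding, stood at 6.12, 4.05, 3.69 and 3.19 CPM in BM-Treg against 5.71, 8.69, 8.35 and 12.2 CPM in SP-Treg. Its log2 fold change was -1.05 ± 0.27 (SE), with an adjusted p of 0.0271, and the tissues overlapped because BM-Treg replicate 1 was above SP-Treg replicate 1. This call was lost without BM-Treg replicate 2, 3 or 4 or without SP-Treg replicate 2 or 4 (adjusted p up to 0.0908, edgeR). Gins4, the gene of this role with the highest mean FPKM over all 8 libraries, stood at 21.5, 23.7, 25.9 and 29.5 CPM in BM-Treg against 27.98, 27.6, 22.3 and 26.97 CPM in SP-Treg, and its log2 fold change was -0.08 ± 0.13 (SE), with an adjusted p of 0.765. The other GINS subunits Gins1 (-0.62), Gins2 (-0.61) and Gins3 (-0.27) were not called, with adjusted p between 0.0809 and 0.561. Cdc45, the remaining part of the running helicase, was at -0.18 (adjusted p = 0.677). Of these, Gins2 was called by DESeq2 (adjusted p = 0.0336).

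Primase and the replicative polymerases had 0 of 9 genes called by edgeR, with 3 lower at an unadjusted p under 0.05, and DESeq2 called 2 (Prim1 and Pole). Pole, the catalytic subunit of the leading strand polymerase, had the largest fold change of the role and stood at 22.3, 13.5, 11.4 and 14.3 CPM in BM-Treg against 19.9, 18.1, 31.3 and 28.8 CPM in SP-Treg, and its log2 fold change was -0.69 ± 0.24 (SE), with an adjusted p of 0.0945. BM-Treg replicate 1 lay among the SP-Treg libraries. Pold3, an accessory subunit of polymerase delta with the highest level per length of the role, stood at 45.6, 44.3, 42.5 and 44.6 CPM in BM-Treg against 50.03, 49.3, 43.5 and 44.6 CPM in SP-Treg, and its log2 fold change was -0.10 ± 0.10 (SE), with an adjusted p of 0.612. Pold3 differed little among the 8 libraries. Prim1, the catalytic subunit of primase, was the gene nearest above the threshold, at -0.61 with an adjusted p of 0.0550, and Rfc1 and Orc1 were nearest below it. Pola1, the catalytic subunit of polymerase alpha, was at -0.53 (adjusted p = 0.0975). Pola2 (0.06), Prim2 (-0.30), Pold1 (0.00), Pold2 (-0.14) and Pole2 (-0.32), which encode other subunits, had adjusted p of at least 0.465.

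The clamp, its loader and the single-strand binding protein had 1 of 9 genes downregulated. Rfc1, the large subunit of the clamp loader, stood at 31.7, 27.2, 34.1 and 24.8 CPM in BM-Treg against 38.3, 37.4, 38.1 and 42.3 CPM in SP-Treg. Its log2 fold change was -0.42 ± 0.12 (SE), with an adjusted p of 0.0458. The ranges did not touch, and BM-Treg replicate 4 was the lowest library. The call held in 1 of 8 fits with a library left out: it was kept without BM-Treg replicate 3 and lost without any other library (adjusted p up to 0.142, edgeR). It was also lost in the fit on FPKM values (adjusted p = 0.270), and most of the counts of Rfc1 fell on transcripts that GENCODE M21 does not list (mean shares of 97.0% in marrow and 92.5% in spleen). Pcna, the sliding clamp itself and the gene with the highest mean FPKM in marrow (125.0, with 135.8 in spleen), stood at 119.2, 115.8, 132.3 and 163.7 CPM in BM-Treg against 154.5, 148.9, 163.3 and 180.1 CPM in SP-Treg, and its log2 fold change was -0.31 ± 0.12 (SE), with an adjusted p of 0.129. BM-Treg replicates 1 to 3 were below all SP-Treg libraries, whereas BM-Treg replicate 4 lay among them. Without replicate 4 Pcna was called (adjusted p = 0.0305). The small loader subunits Rfc2, Rfc3, Rfc4 and Rfc5 had log2 fold changes of -0.22, -0.03, -0.28 and 0.11, and the single-strand binding subunits Rpa1, Rpa2 and Rpa3 -0.16, -0.09 and -0.13. None was called, with adjusted p of at least 0.433.

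Strand maturation and replication-coupled factors held the 2 largest differences of the 59. Ung, the uracil DNA glycosylase that removes uracil from newly made DNA, stood at 2.87, 5.31, 4.45 and 4.36 CPM in BM-Treg against 15.3, 10.3, 10.6 and 23.9 CPM in SP-Treg. Its log2 fold change was -1.84 ± 0.28 (SE), with an adjusted p of 0.00172, and the fitted level was 3.58-fold higher in SP-Treg. Its highest BM-Treg value, 5.31 CPM, was far below its lowest SP-Treg value, 10.3 CPM. Dtl, the substrate receptor of the ubiquitin ligase that degrades CDT1 in S phase, stood at 7.58, 6.29, 5.98 and 8.05 CPM in BM-Treg against 19.2, 10.3, 17.4 and 19.8 CPM in SP-Treg, and its log2 fold change was -1.28 ± 0.21 (SE), with an adjusted p of 0.00218. The tissues were apart in both genes, although SP-Treg replicate 2 came close to BM-Treg for Dtl.

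Fen1, the nuclease that trims the flaps of Okazaki fragments, stood at 5.09, 6.57, 7.69 and 10.4 CPM in BM-Treg against 14.03, 11.8, 13.7 and 16.2 CPM in SP-Treg, and its log2 fold change was -0.94 ± 0.21 (SE), with an adjusted p of 0.0130. Lig1, the ligase that seals them, stood at 41.5, 43.04, 41.9 and 50.1 CPM in BM-Treg against 63.3, 58.2, 71.02 and 68.7 CPM in SP-Treg, and its log2 fold change was -0.59 ± 0.11 (SE), with an adjusted p of 0.00485. In both genes BM-Treg replicate 4 was the nearest of its tissue to SP-Treg and still below all 4 libraries. Chaf1a, a subunit of the chromatin assembly factor CAF-1, was at -0.71 and not called (adjusted p = 0.0676), while DESeq2 gave it an adjusted p of 0.0351. Slbp, which binds histone mRNA, was at -0.06 (adjusted p = 0.810). The 4 calls of this role held with every library left out in turn. Fen1 overlaps 1810006K21Rik over 156 bases and Gm10143 over 3253 bases on the opposite strand, and Lig1 overlaps 6330408A02Rik over 1439 bases.

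Among the genes that supply deoxynucleotides, 2 of 6 were downregulated. Rrm1, the large subunit of ribonucleotide reductase, stood at 50.2, 42.2, 40.96 and 55.4 CPM in BM-Treg against 75.99, 56.1, 72.3 and 83.7 CPM in SP-Treg, and its log2 fold change was -0.63 ± 0.14 (SE), with an adjusted p of 0.0123. Dut, the dUTPase that keeps uracil out of DNA, stood at 21.7, 23.8, 21.7 and 28.7 CPM in BM-Treg against 33.04, 31.4, 31.3 and 39.8 CPM in SP-Treg, and its log2 fold change was -0.52 ± 0.13 (SE), with an adjusted p of 0.0256. The tissues did not overlap in either gene, and BM-Treg replicate 4 was the highest BM-Treg library in both. The call of Rrm1 was lost without BM-Treg replicate 2 (adjusted p = 0.0501), and that of Dut without BM-Treg replicate 1, 2 or 3 or SP-Treg replicate 4 (up to 0.0834, edgeR). Tk1, the S phase thymidine kinase and the highest of the role per length, stood at 33.3, 24.9, 29.8 and 33.7 CPM in BM-Treg against 23.1, 32.2, 34.6 and 34.1 CPM in SP-Treg, and its log2 fold change was -0.05 ± 0.15 (SE), with an adjusted p of 0.885. The lowest of the 8 values of Tk1 belonged to an SP-Treg library, and most counts of Tk1, like those of Gins2, fell on retained intron transcripts.

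The small reductase subunit Rrm2 was at -0.39 (adjusted p = 0.125) and thymidylate synthase, Tyms, at -0.43 (adjusted p = 0.160). As with Pcna, BM-Treg replicate 4 lay among the SP-Treg libraries and the other BM-Treg libraries below them. Rrm2 ranged from 41.6 to 59.5 CPM in BM-Treg replicates 1 to 3, from 63.9 to 75.5 CPM in SP-Treg, and stood at 70.4 CPM in BM-Treg replicate 4. Tyms ranged from 27.9 to 29.7 CPM in BM-Treg replicates 1 to 3, from 34.4 to 50.7 CPM in SP-Treg, and stood at 43.5 CPM in BM-Treg replicate 4. Without replicate 4 both were called lower, with adjusted p of 0.0356 and 0.0379 by edgeR. Dctpp1, a pyrophosphatase for deoxycytidine triphosphate, was at 0.22 (adjusted p = 0.525).

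De novo purine synthesis had 4 of 5 genes downregulated. Paics, which catalyses steps in the middle of the pathway, had a mean FPKM of 108.2 in marrow and 157.7 in spleen, the highest of the 59 genes in spleen and after Pcna the highest in marrow. It stood at 129.9, 140.3, 151.6 and 157.8 CPM in BM-Treg against 209.2, 232.9, 212.8 and 188.2 CPM in SP-Treg, and its log2 fold change was -0.56 ± 0.10 (SE), with an adjusted p of 0.00327. Ppat, the enzyme of the committed first step, stood at 50.8, 62.6, 64.2 and 52.1 CPM in BM-Treg against 105.6, 83.6, 67.9 and 89.2 CPM in SP-Treg, and its log2 fold change was -0.61 ± 0.13 (SE), with an adjusted p of 0.0100. BM-Treg was below SP-Treg in all pairs of libraries for Paics and Ppat. These genes lie on opposite strands with overlapping 5′ ends, over 272 bases in the deposited coordinates.

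Atic, which catalyses the last steps to inosine monophosphate, stood at 40.6, 48.7, 56.02 and 48.7 CPM in BM-Treg against 104.0, 71.6, 59.04 and 83.0 CPM in SP-Treg, and its log2 fold change was -0.73 ± 0.15 (SE), with an adjusted p of 0.00914. Impdh2, which leads from there to guanine nucleotides, stood at 8.44, 8.43, 8.41 and 10.7 CPM in BM-Treg against 11.1, 13.2, 15.6 and 20.3 CPM in SP-Treg, and its log2 fold change was -0.77 ± 0.20 (SE), with an adjusted p of 0.0263. BM-Treg replicates 1 to 3 were nearly equal in Impdh2, and replicate 4 was between them and SP-Treg. The calls of Paics, Ppat and Atic held with each library left out, although those of Ppat and Atic were lost in the fit on FPKM values (adjusted p = 0.135 and 0.113, limma). That of Impdh2 was lost without BM-Treg replicate 1, 2 or 3 or SP-Treg replicate 3 or 4 (adjusted p up to 0.0849, edgeR). Gart, the remaining purine gene, was at -0.21 (adjusted p = 0.368).

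De novo pyrimidine synthesis had 0 of 3 genes called by edgeR, DESeq2 or limma-voom, with 2 lower at an unadjusted p under 0.05 in each. Cad, the enzyme of the first steps, was at -0.27 (adjusted p = 0.237), Umps, which makes uridine monophosphate, at -0.46 (adjusted p = 0.0925), and Ctps, a CTP synthase, at -0.66 (adjusted p = 0.141). A difference between the purine and pyrimidine genes was not tested.

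**Figure D3:**
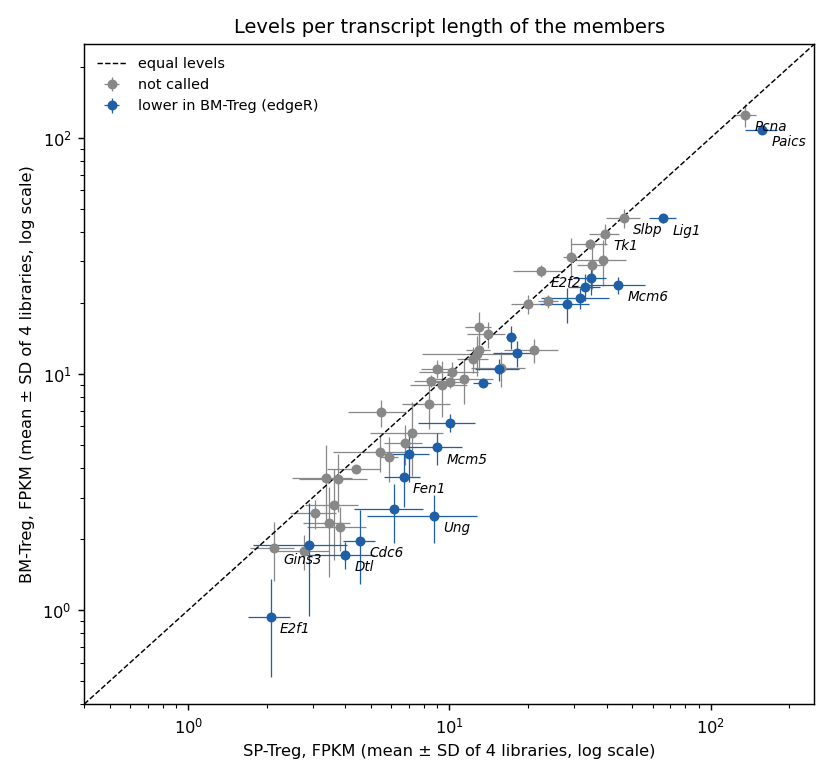
Mean FPKM in BM-Treg (vertical axis) against SP-Treg (horizontal axis) for the 59 genes, both on log scales, with SD over 4 libraries as bars and the line of equal levels dashed. Blue points are genes downregulated in BM-Treg by edgeR on counts. They lie below the line from E2f1 at the lower left to Paics at the upper right, so that the lower genes span the whole range of levels.

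Of the G1/S regulators, 1 of 4 was downregulated. E2f1, an activating E2F factor and the lowest of the 59 genes per length, stood at 1.14, 1.96, 2.92 and 3.86 CPM in BM-Treg against 5.93, 4.34, 5.71 and 6.38 CPM in SP-Treg. Its log2 fold change was -1.22 ± 0.33 (SE), with an adjusted p of 0.0347. The 4 SP-Treg libraries were above all BM-Treg libraries, and BM-Treg replicate 4 was nearest to them. The call was lost without BM-Treg replicate 1, 2 or 3 or SP-Treg replicate 1, 3 or 4 (adjusted p up to 0.104, edgeR). E2f2, its close relative, had a mean FPKM of 27.4 in BM-Treg where E2f1 had 0.935, and stood at 117.9, 111.0, 117.4 and 130.3 CPM in BM-Treg against 99.4, 108.2, 75.3 and 109.8 CPM in SP-Treg, and its log2 fold change was 0.26 ± 0.12 (SE), with an adjusted p of 0.207. All BM-Treg libraries were above all SP-Treg libraries in E2f2, the only one of the 59 with that order, while the test over all genes did not call it. The cyclin E genes Ccne1 (-0.27) and Ccne2 (-0.33) were not called (adjusted p = 0.649 and 0.429).

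Batch 3 holds 1 BM-Treg library, replicate 4, so that its difference from SP-Treg carries no test. The comparison with BM-Treg replicates 1 to 3 uses the same SP-Treg libraries. The median log2 difference of the 59 genes from the SP-Treg mean was -0.23 for replicate 4 and -0.52 for the mean of replicates 1 to 3. By library the medians in BM-Treg were -0.43, -0.48, -0.47 and -0.23, and in SP-Treg -0.02, -0.16, 0.02 and 0.16. Replicate 4 was thus between BM-Treg replicates 1 to 3 and the SP-Treg libraries. It was the highest BM-Treg library in 36 of the 59 genes (61.0%), as in 30.8% of all genes tested. In batch 3 the difference was negative for 40 of the 59 genes, and for 6438 of the 13397 genes tested. It was negative for all 21 downregulated genes and for 19 of the 38 others. The 21 were called in a fit that includes replicate 4, so that their sign here is no separate support.

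The size of the batch 3 difference varied with the gene. It was -1.67 for Ung, -1.10 for Orc2, -1.07 for Cdc6 and -0.99 for Dtl. It was -0.79 for Mcm6, -0.71 for Ppat, -0.68 for Mcm3 and -0.52 for Mcm2. It was -0.51 for E2f1, -0.41 for Fen1, -0.39 for Orc1 and -0.15 for Mcm7. Of the 21 downregulated genes, 16 had a smaller difference in replicate 4 than in the mean of BM-Treg replicates 1 to 3, and 5 (Orc2, Mcm3, Mcm10, Rfc1 and Ppat) had a larger one. It was near 0 for Pcna (0.02), Rrm2 (-0.01) and Tyms (0.05), and positive for Rfc3 (0.50) and Cdt1 (0.57). With batch as a term in the fit, Orc2 had a log2 fold change of -1.13 (adjusted p = 0.0306, edgeR). The other 20 downregulated genes had adjusted p from 0.0706 (Mcm6) to 0.636 (Orc1), and their fold changes stayed negative. That fit rests on a single BM-Treg library for the effect of tissue. Batch and the sex of the mice cannot be told apart.

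**Figure D4:**
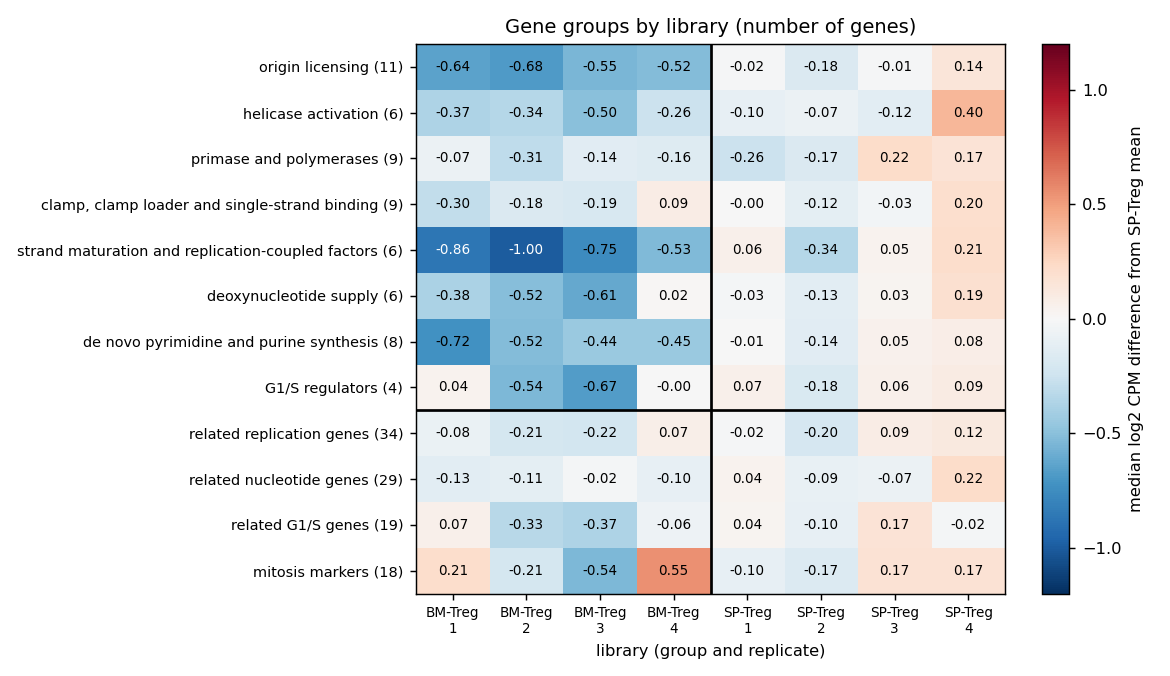
Median log2 CPM difference from the SP-Treg mean for each gene group (rows, with the number of genes) in each library (columns), in colour and as numbers. Above the horizontal line are the 8 roles of the 59 genes and below it the related lists and mitosis markers. Licensing lies between -0.52 and -0.68 in all 4 BM-Treg libraries, while mitosis markers range from -0.54 to 0.55 among them.

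Other genes of the same pathways were examined as lists. Over all genes tested, edgeR called 5.02% lower and 3.72% higher, while DESeq2 called 6.89% and limma-voom 5.26% lower. Of 34 further replication genes (ORC subunits 3 to 5, origin firing factors, fork protection, topoisomerases and histone chaperones), edgeR called 0 and had 6 lower at an unadjusted p under 0.05, DESeq2 called 2 lower and limma-voom 1. Their median log2 fold change was -0.14. Of 29 further nucleotide genes 6 were called. The 5 lower included Mthfd1 (-0.91, adjusted p = 0.0116) and Mthfd2 (-0.78, adjusted p = 0.00456), which make the folate carriers that purine synthesis uses, the deoxycytidine kinase Dck (-0.55) and Adss (-0.46), which acts between inosine and adenosine monophosphate. The 1 higher was Impdh1, the second gene for the step of Impdh2. The calls of Mthfd1, Mthfd2, Dck and Impdh1 held with each library left out. That of Adss was lost without BM-Treg replicate 1, 2 or 4 or SP-Treg replicate 1 or 4 (adjusted p up to 0.071, edgeR). None of the lower calls of this list was kept with batch as a term, a fit that rests on a single BM-Treg library for tissue.

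Impdh1 went the other way from Impdh2. It stood at 18.6, 15.6, 16.1 and 22.3 CPM in BM-Treg against 6.58, 10.03, 8.68 and 10.2 CPM in SP-Treg, and its log2 fold change was 1.01 ± 0.19 (SE), with an adjusted p of 0.00397. All BM-Treg libraries were above all SP-Treg libraries, and with batch as a term the call was kept (adjusted p = 0.0257, edgeR).

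Of 20 further G1/S genes 19 were tested and 6 called, beside 5.02% lower and 3.72% higher over all genes tested. Lower were E2f3 (-0.70), E2f6 (-0.54), the E2F partner Tfdp1 (-0.72), the phosphatase Cdc25a (-0.57) and Myc. Higher was Rbl2 (0.56, adjusted p = 0.00999), which encodes the E2F-binding pocket protein p130 of quiescent cells. Myc stood at 45.7, 40.5, 54.4 and 44.5 CPM in BM-Treg against 56.8, 68.4, 133.9 and 116.6 CPM in SP-Treg, and its log2 fold change was -1.04 ± 0.26 (SE), with an adjusted p of 0.0413. The tissues did not overlap, with SP-Treg replicate 1 nearest to BM-Treg. Tfdp1 and Rbl2 were called with each library left out in turn. E2f3 was lost without BM-Treg replicate 1 or 4 or SP-Treg replicate 1 or 4 (adjusted p up to 0.0762, edgeR). E2f6 was kept only without BM-Treg replicate 3 or SP-Treg replicate 3, and Cdc25a only without SP-Treg replicate 3 (up to 0.153 and 0.115). Myc was kept only without SP-Treg replicate 1 or 2, and its adjusted p rose to 0.119 otherwise. None of these 6 was called with batch as a term.

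Genes of the later, mitotic part of the cycle were examined for comparison. Of 18 mitosis markers, edgeR, DESeq2 and limma-voom called 0, and edgeR had 1 higher at an unadjusted p under 0.05. Over all genes tested, edgeR called 5.02% lower and 3.72% higher. Their median log2 fold change was -0.01. Mki67, a marker of cycling cells, stood at 1196, 803.7, 600.7 and 1411 CPM in BM-Treg against 933.2, 902.4, 1145 and 1041 CPM in SP-Treg, and its log2 fold change was -0.02 ± 0.24 (SE), with an adjusted p of 0.974. The highest and the lowest of the 8 Mki67 values were both BM-Treg libraries, replicate 4 and replicate 3. In batch 3 the median difference of the 18 markers was 0.55, with 1 of 18 negative, beside -0.23 and 40 of 59 negative for the replication and nucleotide genes in the same library. For the mean of BM-Treg replicates 1 to 3 the median of the markers was -0.21, with 14 of 18 negative. By library it was 0.21, -0.21 and -0.54 in BM-Treg replicates 1, 2 and 3, so that its sign varied within batch 1. A difference between these lists was not tested.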

How the data were processed

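RNA (15 ng per library, from more than 100000 sorted cells) was amplified by single primer isothermal amplification and read from 1 end over 80 nt. The authors deposited expected counts (estimated reads per gene or transcript, not normalized) and FPKM values (scaled by length and depth). The submitters' processing notes name cutadapt 1.9, STAR 2.5.2a, RSEM 1.2.30 and GRCm38. No test is named for the RNAseq. No column of a single library was left unmatched (0).

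After rounding, the default filter of edgeR and TMM scaling, genes were tested by its robust quasi-likelihood method without covariates (Benjamini-Hochberg). CPM use TMM library sizes, and log2 CPM a prior count of 2. Versions were edgeR 4.0.16, DESeq2 1.42.0 and limma 3.58.1, in R 4.3.3. Libraries of a tissue were not duplicates (chi-square per degree of freedom 14.2 to 92.4). The tests were tried on simulated data. Alternatives were other tools, FPKM, filters, batch or replicate number as a term, single libraries left out, and thinning.

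Members and lists were chosen with earlier results of these data known. Named in full were members with adjusted p under 0.05 and, per role, that with the highest FPKM and that with the largest fold change. Of related lists, called genes (except 1 that is not reported here), Mki67 and Myc were named, and other genes were singled out after their values were seen. Of 153 list entries 151 matched. Coordinates of all 59 members overlapped GENCODE M21, 44 identically. Reads carry no molecular identifiers, so errors were taken from libraries. The codes in the spleen titles read as overlapping ranges of numbers, and whether libraries share animals is not stated, so p-values measure the spread between these libraries.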

Additional observations from a re-analysis of the deposited data

Results flagged for a closer look

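In 4 of the 118 groups of 4 libraries (59 genes in each tissue) a single library stood far from the other 3 by Dixon's test, and chance gives about 1 in 20. Tyms was at 43.5 CPM in BM-Treg replicate 4, with 27.9 to 29.7 CPM in the other BM-Treg libraries. Impdh2 was at 10.7 CPM in BM-Treg replicate 4, with 8.41 to 8.44 CPM in the others. Cdc45 was at 9.86 CPM in SP-Treg replicate 4, with 6.15 to 6.78 CPM in the other SP-Treg libraries. Rpa1 was at 67.1 CPM in SP-Treg replicate 3, with 87.5 to 90.7 CPM in the others.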

How the results depend on the processing

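Of the 59 genes, 21 were called lower, and the count stayed within 1.5 times of that with DESeq2's size factors, DESeq2, limma-voom, other filters, a replicate block and libraries thinned to the smallest total (20, chosen after seeing the data). It fell to 11 with limma-trend on FPKM (log2, pseudocount 1 or 0.1), where 2.02% and 1.98% of all genes were lower in place of 5.02%, and to 1 with batch as a term (1.10%), and the causes were not tested. It ran from 13 (without BM-Treg replicate 2, 2.89% of all genes) to 24 (without BM-Treg replicate 4, 4.38%) with a library left out, and 0 genes were called higher in any of these fits. The median log2 fold change of -0.42 moved to -0.26 with the batch term and ran from -0.55 (without BM-Treg replicate 4) to -0.37 with a library left out. Of the 34 replication, 29 nucleotide and 19 G1/S related genes tested, 12 were called, beside 5.02% lower and 3.72% higher over all genes. With either FPKM fit 4 were called, beside 2.02% lower and 3.40% higher (pseudocount 1) or 1.98% and 3.25% (0.1). With the batch term 1 was called, beside 1.1% lower and 0.8% higher. An excess of related genes over these shares was not tested. Related genes called ran from 6 (without BM-Treg replicate 1) to 11 with a library left out, with 7 without BM-Treg replicate 2 or SP-Treg replicate 4. The batch 3 median of -0.23 ran from -0.30 to -0.15 with an SP-Treg library left out. Of the 21 lower genes, 13 were called in all 8 fits with a library left out, and 9 under every alternative except the batch term.

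None of the 21 changed direction under any alternative, but 18 uncalled genes did. With the batch term these were Orc6 (0.28), Cdc45 (0.0193), Gins1 (0.0885), Gins4 (0.16), Pcna (0.0019), Rfc2 (0.27), Rfc3 (0.46), Rpa2 (0.21), Rpa3 (0.27), Slbp (0.12), Tyms (0.0063) and Tk1 (0.10). With FPKM and a pseudocount of 1 or 0.1 they were Pold1 (-0.0901 and -0.0968), Pold3 (0.0791 and 0.0809), Rpa1 (0.0482 and 0.0499), Rpa2 (0.0728 and 0.0777), Cad (0.0189 and 0.0229) and Ccne1 (0.0537 and 0.0603). With a library left out, values ran from -0.25 to 0.0060 for Cdc45, -0.17 to 0.0072 for Gins4, -0.0082 to 0.13 for Pola2, -0.11 to 0.0664 for Pold1, -0.22 to 0.14 for Rfc3, -0.28 to 0.17 for Rpa3, -0.12 to 0.024 for Slbp and -0.16 to 0.0384 for Tk1.

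The replicate numbers did not pair the libraries: correlations of same-numbered deviations were -0.11, 0.06, -0.18 and 0.04, and not every library correlated best with its own number. With the replicate number as a block, 19 of the 59 genes were called lower, 18 of them among the 21. Low counts limit genes such as E2f1, Orc1, Gins1 and Gins3, which had a few CPM per library. In BM-Treg, though not in SP-Treg, Ung, Cdc6 and Mcm10 were at similarly low levels.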

Other observations

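Transcript tables gave a second view of some genes, chosen after their values had been seen. These are shares of a gene's expected counts that fell on protein-coding transcripts, estimated by the authors' counting for transcripts that overlap, and no test was made. Of the 59 genes, 43 had several transcripts listed and 37 had a coding share under 100% in some library. In 2 of these (5.41%) every BM-Treg library was below every SP-Treg library and in 1 (2.70%) above, with shares of 2.74% and 1.71% over the 6131 such genes among all genes tested, so that these few cases are values and not a result about the 59. The coding share of Pcna was 63.6% to 69.7% in BM-Treg and 70.8% to 82.8% in SP-Treg, with mean shares on retained intron transcripts of 25.2% and 17.9%. That of Rrm2, the small subunit of ribonucleotide reductase, was 95.0% to 96.2% and 97.3% to 97.9%. For Pold1, the catalytic subunit of polymerase delta, the order was the other way, at 53.4% to 61.9% in BM-Treg and 39.3% to 50.2% in SP-Treg.

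Some gene totals rested mostly on transcripts that are not annotated as coding. Retained intron transcripts made up mean shares of 91.7% (marrow) and 96.9% (spleen) of the counts of Gins2, and 85.9% and 86.9% of those of Tk1. For Rfc1, 97.0% (marrow) and 92.5% (spleen) fell on transcripts that GENCODE M21 does not list.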
